A study of Mus musculus with 8 samples.

Results

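Complement components and regulators were examined in brain endothelial cells (BECs) after experimental subarachnoid haemorrhage (SAH). The genes were 9 listed complement genes (C3, C4b, Cfb, Cfd, Serping1, Cd55, Cd46, Cd59a and C5ar1), and every array probe set whose only annotated symbol was one of these was kept. This gave 7 probe sets for 7 genes, out of 41345 probe sets in the whole table. C3 and Cfd had no probe set of this kind in the annotation used and were not analysed here.

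Both groups were wild-type male FVB/NJ mice aged 12 weeks. The 4 SAH mice received 80 µL of littermate blood by prechiasmatic injection, and the 4 sham mice had the same needle insertion with 0 µL of blood. Brains were taken at 24 h, meninges were removed, and CD45-CD31+ BECs were isolated from the left cerebral hemisphere with magnetic beads. RNA from each animal was amplified and hybridised to 1 Affymetrix Mouse Gene 2.0 ST array, so the spread within a group is the spread between animals. FVB/NJ is a strain known to carry a loss-of-function allele of Hc, the mouse gene for complement C5, from which the C5a peptide is cut.

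Complement is a cascade of plasma and cell surface proteins in which C1, lectins or the alternative pathway build convertases that cleave C3 and C5. The cleavage products coat surfaces, form the membrane attack complex, or act as peptides (C3a and C5a) on receptors of leukocytes and other cells. Cells facing the blood, endothelium among them, carry membrane regulators that dismantle convertases or block the attack complex, and the soluble C1 inhibitor acts at the first step.

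Serping1, C5ar1 and Cfb were upregulated in BECs after SAH, each by more than 1 on the log2 scale, although the call of Cfb was lost in 6 of the 8 fits that leave out 1 array. Values are log2 intensities after robust multi-array average (RMA) normalization by the authors, and a change is SAH minus sham in a limma fit over the 25341 probe sets with at least 1 gene symbol. Of the 7 complement genes, 3 rose and 0 fell past the threshold (Benjamini-Hochberg adjusted p of 0.05), a threshold that 3.18% of all tested probe sets passed (1.90% higher and 1.28% lower). The change was positive for 6 genes and negative for 1, with a median of 0.41 over the 7 genes and of -0.02 over all tested probe sets. All SAH arrays lay above all sham arrays for 3 of the 7 genes (Serping1, Cd46 and C5ar1) and below them for 0 of 7, against 4.51% and 4.47% of all tested probe sets (8.99% together). On the same arrays the mean log2 level of microglia and macrophage markers was also higher, at 5.80 to 6.12 in SAH, against 5.22 to 5.46 in sham, and its part in these changes was not tested. The genes and lists here were chosen with results from these arrays already known, so these counts are descriptions.

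**Figure D1:**
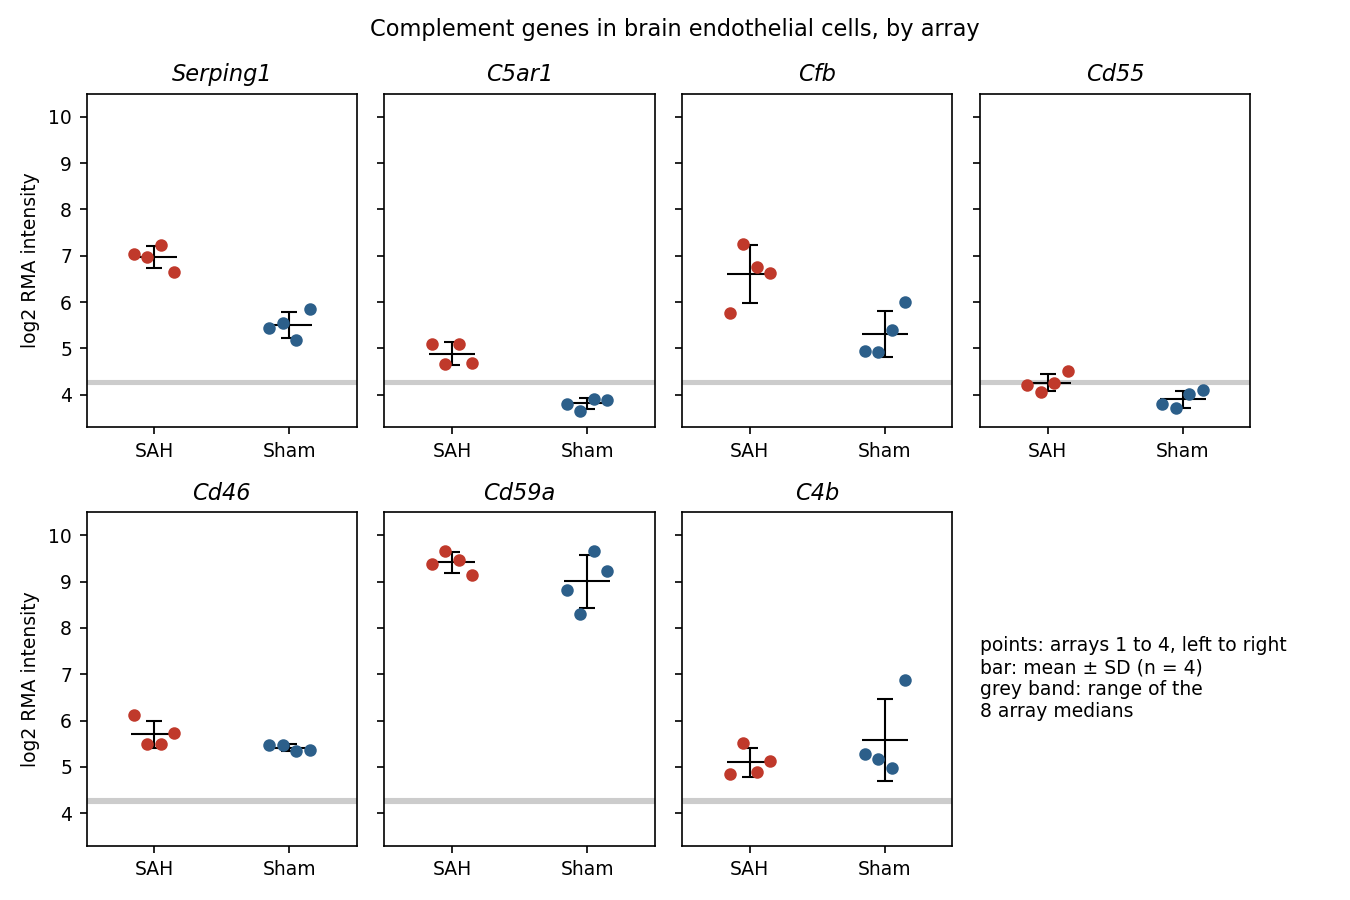
Log2 RMA intensity of the 7 complement genes, with SAH arrays (red) left of sham arrays (blue) in each panel, points in the order of arrays 1 to 4, bars showing mean ± SD (n = 4 each), and a grey band spanning the medians of the 8 arrays (4.23 to 4.30). The groups are separated by 0.78 for Serping1 and 0.76 for C5ar1, Cfb has 1 SAH array below the highest sham array, and C4b has 1 sham array at 6.89 far above the other sham arrays.

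The array medians lay between 4.23 and 4.30, and no value was missing. All 12 endothelial markers were above the array median on all 8 arrays. The cells had been selected by CD31, the Pecam1 product, which the methods state leukocytes also express. High endothelial markers therefore do not by themselves show whether other cells were present. The methods also describe depletion of CD45+ cells and a check of purity by flow cytometry. The paper describes genes of other cell types as rather low in the amplified RNA. Pecam1 and Cdh5 encode adhesion molecules of endothelium. These genes averaged 10.66 ± 0.09 and 11.17 ± 0.03 in SAH BECs, against 10.30 ± 0.06 and 10.95 ± 0.13 in sham BECs (SD, n = 4 each). Ptprc, which encodes CD45, was below the array median on all 8 arrays. It was the only 1 of 11 microglia and macrophage markers to be so. Others were well above the medians even in sham, such as Ctss (mean 6.32) and Tyrobp (mean 5.81). Sham array 4 was the highest sham array for 4 of the 7 complement genes (C4b, Cfb, Serping1 and Cd55). The share of all tested probe sets for which this array was the highest sham array is not given here.

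Among the components, Cfb encodes factor B, the serine protease of the alternative pathway convertase. Cfb (probe set 17344064) measured 5.76, 7.26, 6.75 and 6.63 on SAH arrays 1 to 4, against 4.95, 4.93, 5.40 and 5.99 on sham arrays 1 to 4. The groups overlapped, because SAH array 1 lay below sham array 4, while the other 3 SAH arrays lay above all sham arrays. Cfb was 2.43-fold higher after SAH, a log2 change of 1.28 (SE 0.30, 95% interval 0.61 to 1.95, adjusted p = 0.0464). The SD within groups was larger for Cfb than for 99.0% of tested probe sets.

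The Cfb call was close to the threshold and was lost in 6 of 8 fits that leave out 1 array and in some settings. Leaving out 1 array also lowered the calls over all probe sets, from 807 to between 471 and 684. With 1 array left out at a time it was kept only without SAH array 1 (change 1.56, adjusted p = 0.0139) and without sham array 4 (1.51, adjusted p = 0.0265). It was lost without SAH array 2 (1.06, adjusted p = 0.0967), SAH array 3 (1.23, adjusted p = 0.125), SAH array 4 (1.27, adjusted p = 0.1000), sham array 1 (1.16, adjusted p = 0.127), sham array 2 (1.15, adjusted p = 0.135) and sham array 3 (1.31, adjusted p = 0.0991). The change was positive in each of these 8 fits.

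C4b encodes complement C4, which is cleaved by C1s and lectin-associated proteases and joins C2 in the classical convertase. C4b (probe set 17343918) measured 4.84, 5.51, 4.89 and 5.14 on SAH arrays 1 to 4, against 5.27, 5.16, 4.97 and 6.89 on sham arrays 1 to 4. Sham array 4 stood far above the other 7 arrays, which shared a range of 4.84 to 5.51. The change of -0.48 (SE 0.35, 95% interval -1.25 to 0.30, adjusted p = 0.624) did not pass, and without sham array 4 it was -0.04. Within-group SD was larger for C4b than for 99.5% of tested probe sets.

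**Figure D2:**
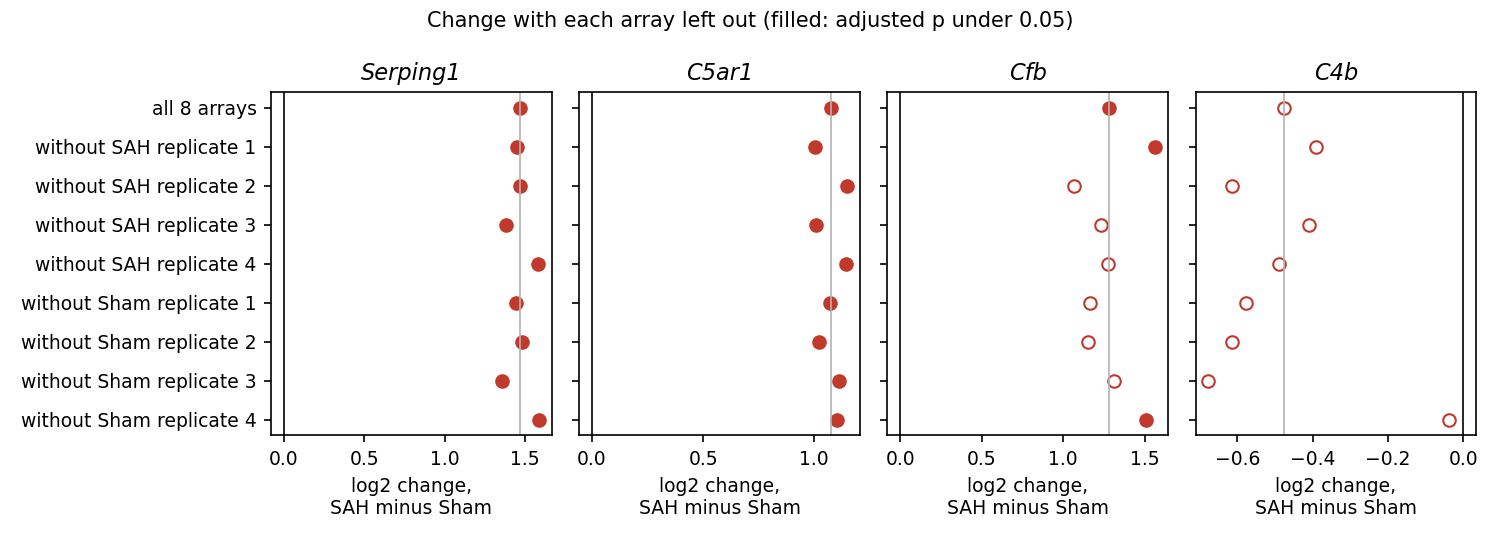
Log2 change (SAH minus sham) of Serping1, C5ar1, Cfb and C4b from all 8 arrays and with each array left out in turn, with filled points where the adjusted p is under 0.05 and a grey line at the value from all arrays. Serping1 (1.36 to 1.58) and C5ar1 (1.01 to 1.15) stay filled in all 8 fits, Cfb is filled in only 2 of them, and C4b moves to -0.04 without sham array 4.

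Serping1 encodes C1 inhibitor, a secreted serpin that inactivates C1r, C1s and the lectin-associated proteases, and also plasma kallikrein and factor XIIa. Serping1 (probe set 17387517) measured 7.03, 6.98, 7.23 and 6.64 on SAH arrays 1 to 4, against 5.44, 5.55, 5.17 and 5.86 on sham arrays 1 to 4. The lowest SAH array exceeded the highest sham array by 0.78. Serping1 was 2.76-fold higher after SAH, with a log2 change of 1.47 (SE 0.16, 95% interval 1.11 to 1.82, adjusted p = 0.000853). By the methods' t-test, as run here, it did not pass after Benjamini-Hochberg adjustment (adjusted p = 0.0524). Serping1 ranked 83 by change and 51 by p among the 25341 tested probe sets.

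The 3 genes past the threshold whose centred values lay closest to Serping1 over the 8 arrays were Tnf, Msr1 and Synpo, among 759 candidate probe sets. Tnf, the inflammatory cytokine tumour necrosis factor, differed from it by a root mean square of 0.13 on the log2 scale and was higher by 1.44 after SAH (SE 0.14, adjusted p = 0.000369). Msr1, a macrophage scavenger receptor, differed by 0.19 and was higher by 1.15 (SE 0.17, adjusted p = 0.00418). Synpo, the actin-binding protein synaptopodin, also differed by 0.19 and was higher by 1.34 (SE 0.11, adjusted p = 0.000185). All SAH arrays lay above all sham arrays for each of the 3 genes. They were picked for passing and for likeness to Serping1, so this separation follows largely from the choice. The likeness was measured on arrays that fall into 2 groups, so it mostly reads a change of similar size.

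The 3 membrane regulators did not pass the test, although each change was positive. Cd55 encodes decay-accelerating factor, which takes convertases apart. Cd55 (probe set 17226622) measured 4.22, 4.07, 4.26 and 4.51 on SAH arrays 1 to 4, against 3.79, 3.71, 4.01 and 4.11 on sham arrays 1 to 4. SAH array 2 lay 0.04 below sham array 4, and the other 3 SAH arrays lay above all sham arrays. The change was 0.36 (SE 0.13, 95% interval 0.08 to 0.64, adjusted p = 0.210), and 3 SAH and 4 sham arrays were below their array median, where RMA values may understate a change.

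Cd46 encodes membrane cofactor protein, which helps factor I to cleave C3b and C4b in humans, while in mice its expression is known mainly from testis. Cd46 (probe set 17231287) measured 6.11, 5.49, 5.50 and 5.73 on SAH arrays 1 to 4, against 5.48, 5.48, 5.35 and 5.36 on sham arrays 1 to 4. The groups did not overlap, but the gap between them was only 0.0075, and SAH array 1 was the highest. The change was 0.29 (SE 0.14, 95% interval -0.02 to 0.60, adjusted p = 0.385).

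Cd59a encodes the main mouse form of CD59, the anchored protein that stops assembly of the membrane attack complex. Cd59a (probe set 17373825) measured 9.38, 9.67, 9.46 and 9.14 on SAH arrays 1 to 4, against 8.82, 8.31, 9.65 and 9.23 on sham arrays 1 to 4. The sham arrays were spread over a wider range (8.31 to 9.65) than the SAH arrays (9.14 to 9.67), and the groups overlapped. The change was 0.41 (SE 0.24, 95% interval -0.12 to 0.94, adjusted p = 0.510). The intervals of Cd46 and Cd59a include 0 and also changes of 0.60 and 0.94, so an upregulation of that size was not distinguishable from none.

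C5ar1 encodes the C5a receptor, a G protein-coupled receptor best known from neutrophils, monocytes and microglia and also described on endothelium. C5ar1 (probe set 17486864) measured 5.10, 4.67, 5.09 and 4.69 on SAH arrays 1 to 4, against 3.80, 3.64, 3.91 and 3.89 on sham arrays 1 to 4. All SAH arrays were above their array median, all sham arrays were below it, and the gap between the groups was 0.76. C5ar1 was 2.11-fold higher after SAH, a log2 change of 1.08 (SE 0.13, 95% interval 0.79 to 1.36, adjusted p = 0.00165). The call was kept with each array left out, and with 16 added to the linear intensities, which shrinks changes of dim probe sets, the change was 0.60 (adjusted p = 0.00843). By the methods' t-test, as run here, C5ar1 did not pass after Benjamini-Hochberg adjustment (adjusted p = 0.0508). Hc, named here after its values were seen, was below the array median on all 8 arrays (2.95 ± 0.15 after SAH and 2.87 ± 0.12 in sham, SD, n = 4 each).

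Promoter sequences from RefSeq (GRCm38.p6, from 250 bases before the start to 50 bases after it) were matched to 4 of the 7 genes (Cd55, Cd46, Cd59a and C5ar1). C5ar1 and Cd46 are shown because in both genes all SAH arrays lay above all sham arrays, with a wide gap in C5ar1 and almost none in Cd46. The reference comes from another strain than FVB/NJ. Capitals mark AGGAAG on either strand, 1 form of the sites read by ETS family factors, several of which are active in endothelial and myeloid cells. Shorter or other forms of such sites were not searched. The windows are chr7:16259289-16259588 (minus strand) for C5ar1 and chr1:195092199-195092498 (minus strand) for Cd46, written along the gene.
C5ar1: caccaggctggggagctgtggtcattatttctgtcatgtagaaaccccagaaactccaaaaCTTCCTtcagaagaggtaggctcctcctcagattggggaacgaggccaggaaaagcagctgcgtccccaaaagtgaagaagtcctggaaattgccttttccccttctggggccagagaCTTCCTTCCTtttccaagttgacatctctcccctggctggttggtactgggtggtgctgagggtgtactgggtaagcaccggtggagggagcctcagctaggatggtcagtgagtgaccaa
Cd46: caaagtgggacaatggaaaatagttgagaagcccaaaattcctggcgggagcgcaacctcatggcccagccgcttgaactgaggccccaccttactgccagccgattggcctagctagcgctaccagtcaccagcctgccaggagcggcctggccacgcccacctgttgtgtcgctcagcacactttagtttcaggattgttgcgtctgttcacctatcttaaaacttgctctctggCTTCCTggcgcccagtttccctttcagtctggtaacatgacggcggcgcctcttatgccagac
C5ar1 held 3 matches to AGGAAG, of which 2 overlap, and Cd46 held 1, while Cd55 and Cd59a held 0 of this form. At least 1 match stood in 35.4% of 32851 RefSeq promoters and 3 or more in 1.90%. None of the 4 promoters held the NF-kappaB motif (8.46% of all promoters), the STAT motif TTCNNNGAA (8.30%) or the AP-1 motif TGANTCA (7.81%), each searched on both strands. The CEBP motif TTNNGNAA stood once in C5ar1 (40.7% of all promoters), and CCAAT stood once each in C5ar1 and Cd46 (37.4%). A match of letters is not a bound site.

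Several complement genes have a close relative beside them on the chromosome, and 6 such pairs, chosen after the values were seen, were compared by the exact permutation test over all 70 assignments of arrays to groups. The change of C5ar1 exceeded by 0.86 that of C5ar2, which encodes the other C5a receptor and had a change of 0.21 (SE 0.12, adjusted p = 0.481). Cd59a and Cd59b, a pair on chromosome 2, had changes of 0.41 and -0.28. Each of these differences had an exact two-sided p of 0.0286, the smallest that 4 against 4 arrays can give, and a value of 0.0857 after Benjamini-Hochberg adjustment over the 6 pairs, so neither passed. Cd59b on sham array 3 was 5.84, with the nearest other sham array at 4.99, and its pair was not compared without that array.

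Cfb and C2, which lie next to each other on chromosome 17 and supply the protease of the alternative and the classical convertase, differed in change by 1.21 (exact permutation p = 0.0857, adjusted 0.129). Cd55 differed from Cd55b by 0.33 (exact permutation p = 0.0571, adjusted 0.114). C4b differed from C4a by -0.25 (exact permutation p = 0.83, adjusted 0.971). C2, Cd55b and C4a were below the array median on all 8 arrays, and whether probes of C4b also read C4a, its near-identical copy, was not tested.

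Cr1l encodes Crry, the mouse regulator that does in most mouse tissues what CD46 and CD55 do in humans. Cr1l measured 9.15, 9.15, 9.32 and 9.12 on SAH arrays 1 to 4, against 8.79, 8.86, 8.88 and 9.12 on sham arrays 1 to 4. Every SAH array lay above every sham array, with SAH array 4 and sham array 4 nearly equal. The change of 0.27 (SE 0.11, adjusted p = 0.263) did not pass, and it differed from that of Cd46 by 0.02 (exact permutation p = 0.971, adjusted 0.971).

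**Figure D3:**
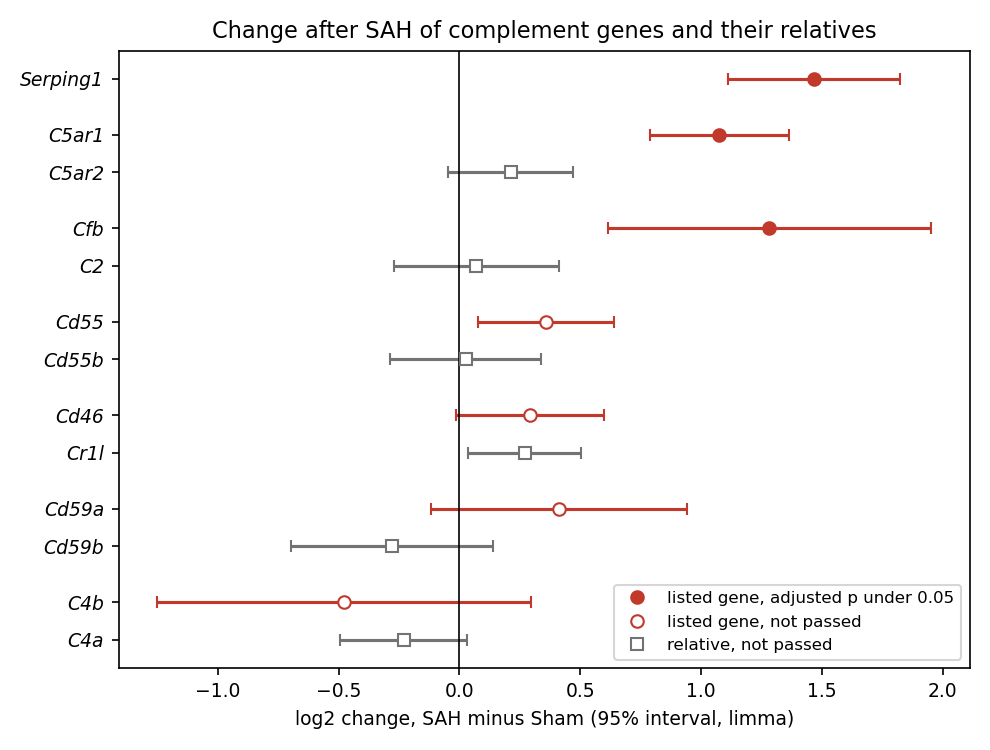
Log2 change (SAH minus sham) with 95% intervals from limma for the 7 complement genes (red circles, filled where the adjusted p is under 0.05) and for 6 relatives (grey squares), each drawn under its partner. Serping1, C5ar1 and Cfb are filled at 1.47, 1.08 and 1.28, the relatives lie between -0.28 and 0.27, and none of the relatives is filled.

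Of 47 further complement genes on 4 lists, 45 were measured, of which 1 (C1qc) rose and 0 fell past the threshold in limma, close to the 1.90% higher and 1.28% lower among all tested probe sets. An unadjusted p under 0.05 was found for 8 of the 45, against 14.1% of all tested probe sets. Their median change was 0.05, and 27 of them were below the array median on all arrays. The other 2 were not analysed here. The 3 chains of C1q, the recognition molecule of the classical pathway, had the highest changes of the initiation list, in which 1 of 17 genes passed and the median was 0.05.

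C1qc measured 5.51, 5.28, 5.38 and 5.65 on SAH arrays 1 to 4, against 4.62, 4.86, 4.81 and 4.84 on sham arrays 1 to 4. Its change of 0.67 (SE 0.11, adjusted p = 0.00773) did not pass by the methods' t-test as run here (adjusted p = 0.0675). It also did not pass with a block by description number (0.74, adjusted p = 0.0613). These numbers leave SAH array 2 and sham array 3 without a partner, so that fit compares the groups on the other arrays only. C1qb measured 7.20, 6.74, 7.72 and 6.91 on SAH arrays 1 to 4, against 6.58, 6.17, 6.52 and 6.42 on sham arrays 1 to 4, a change of 0.72 (SE 0.19, adjusted p = 0.0743). All SAH arrays lay above all sham arrays for both chains, and SAH array 3 was the highest for C1qb. C1qa, named after its values were seen, had a change of 0.65 (SE 0.17, adjusted p = 0.0763), and without SAH array 2 all 3 chains passed (C1qb 0.85, adjusted p = 0.0385).

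Of the alternative and terminal pathway, 0 of 8 genes passed in limma, with changes between -0.18 and 0.13. None of the 8 had an unadjusted p under 0.05 in limma, against 14.1% of all tested probe sets. Cfp encodes properdin, which stabilises the alternative convertase, and had a change of 0.11 (SE 0.17, adjusted p = 0.837). Terminal components C6, C7, C8a, C8g and C9, which build the attack complex, were below the array median on all 8 arrays.

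Of 13 other regulators, 0 passed in limma, and the median change was -0.00. Of these 13, 3 had an unadjusted p under 0.05 in limma, against 14.1% of all tested probe sets. Vtn encodes vitronectin, which binds the forming attack complex, and measured 10.92, 10.44, 10.47 and 10.74 on SAH arrays 1 to 4, against 10.46, 10.43, 10.23 and 10.59 on sham arrays 1 to 4. The groups overlapped and the change was 0.21 (SE 0.13, adjusted p = 0.536). Clu, which encodes the related inhibitor clusterin and was named after its values were seen, measured between 6.88 and 7.52 on the SAH arrays, against 6.38 to 6.79 on the sham arrays. Its groups did not overlap, but the change of 0.61 (SE 0.16, adjusted p = 0.0644) did not pass in the fit over all tested probe sets, while Clu passed without SAH array 4 and where only probe sets above the table median or above log2 6 were tested.

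Of 7 other receptors, 0 passed in limma, and the median change was 0.21. Of these 7, 2 had an unadjusted p under 0.05 in limma, against 14.1% of all tested probe sets. C3ar1, the C3a receptor, and Itgam, the alpha chain of complement receptor 3, had changes of 0.53 (SE 0.23, adjusted p = 0.318) and 0.49 (SE 0.18, adjusted p = 0.223), both named after their values were seen. C5ar2 measured 5.23, 4.83, 5.27 and 5.15 on SAH arrays 1 to 4, against 4.86, 4.80, 5.03 and 4.94 on sham arrays 1 to 4, so that SAH array 2 lay within the sham range and the other 3 SAH arrays above it.

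**Figure D4:**
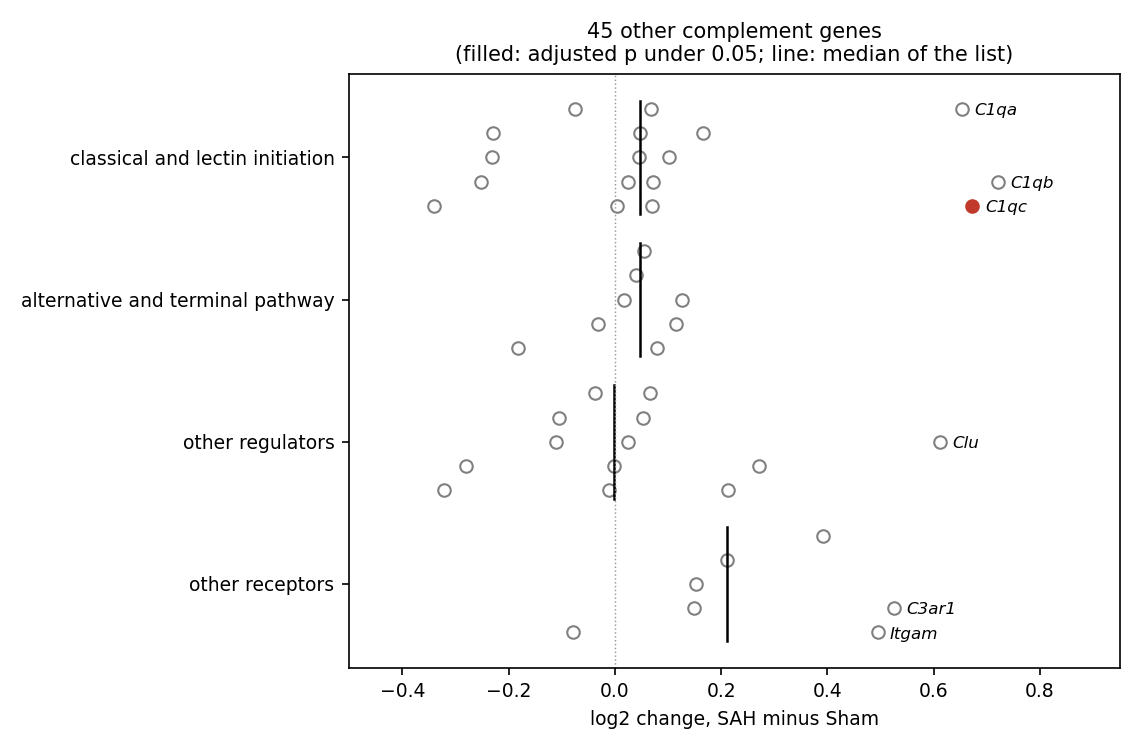
Log2 change (SAH minus sham) of 45 other complement genes on 4 lists, 1 point per gene (filled where the adjusted p is under 0.05) with the median of each list as a black line. C1qc at 0.67 is the single filled point, C1qa, C1qb and Clu lie near it without passing, and the list medians lie between -0.00 and 0.21.

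Complement genes are also expressed by cells other than endothelium, so markers of such cells were measured on the same arrays. There, more or fewer cells of a type cannot be told apart from more or less RNA per cell. Over all tested probe sets, 1.90% were higher and 1.28% lower past the threshold, the shares to set beside each marker list. Of 11 microglia and macrophage markers 3 were higher after SAH past the threshold. The summed log2 level of the list was 63.81 to 67.35 in SAH, against 57.39 to 60.11 in sham, with no overlap. Tyrobp, Ctss and Fcer1g changed by 1.39 (adjusted p = 0.00489), 1.46 (adjusted p = 0.00180) and 0.98 (adjusted p = 0.0349), and the change was positive for all 11 markers. Csf1r, P2ry12, Cx3cr1 and Tmem119, named after their values were seen, had changes of 0.72 (adjusted p = 0.132), 0.33 (adjusted p = 0.309), 0.24 (adjusted p = 0.621) and 0.06 (adjusted p = 0.865). Ptprc had a change of 0.68 (adjusted p = 0.123).

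Of 9 neutrophil markers S100a8 and S100a9 were higher, by 2.07 (adjusted p = 0.0229) and 1.21 (adjusted p = 0.0355). The summed level of the list was 33.89 to 38.78 in SAH, against 31.50 to 33.37 in sham, again with no overlap. Of the other 7, Ly6g, Mmp8, Mmp9, Ngp, Camp and Retnlg were below the array median on all 8 arrays, and the chemokine receptor Cxcr2 was above it on all 8 (4.74 to 5.55). Mmp8 had a change of 0.50 (adjusted p = 0.0551), with every SAH array above every sham array.

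Of 6 fibroblast markers Dcn alone passed (1.37, adjusted p = 0.00110), with Lum and Pdgfra below the array median on all arrays, and the list summed to 26.24 to 27.34 in SAH, against 24.94 to 25.72 in sham. Of 8 pericyte and smooth muscle markers Kcnj8 alone passed (0.96, adjusted p = 0.0257), with sums of 61.79 to 64.05 in SAH, against 60.01 to 62.41 in sham. Changes in this list were positive for 5 genes and negative for 3. Acta2, named after its values were seen, had a change of -0.41 (adjusted p = 0.0579 in limma), with every SAH array below every sham array. None of 8 astrocyte, 5 oligodendrocyte, 5 lymphocyte and 4 adipocyte markers and 1 red blood cell marker passed in limma. Among them 2 had an unadjusted p under 0.05 in limma, against 14.1% of all tested probe sets.

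Of 12 endothelial markers, Kdr and Tek, which encode receptors of vascular endothelial growth factor and angiopoietins, fell by 0.78 (adjusted p = 0.0163) and fell by 0.99 (adjusted p = 0.00658), and the other 10 did not pass. The endothelial list summed to 115.72 to 117.48 in SAH, against 116.79 to 118.56 in sham. Serping1, C5ar1, Cfb and C1qc moved on arrays where macrophage, neutrophil and fibroblast lists also separated the groups, and the part of these lists in the complement changes was not tested. In the neutrophil list only S100a8 and S100a9 passed (median change of the list 0.23, 7 positive and 2 negative). In the fibroblast list only Dcn passed (median 0.04, 4 positive and 2 negative). The separation of the neutrophil and fibroblast lists thus rested largely on few genes.

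The marker calls of Tyrobp, Ctss, Dcn and Tek were kept with each array left out. Kdr did not pass without SAH array 3 (-0.70, adjusted p = 0.0524) or sham array 2 (-0.72, adjusted p = 0.0523). Fcer1g did not pass without SAH array 1 or 3 or sham array 2, 3 or 4 (0.81 to 1.05). S100a8 did not pass without SAH array 1 or 2 or sham array 2, 3 or 4 (1.96 to 2.13), S100a9 without SAH array 1 or 2 or any 1 sham array (1.14 to 1.27), and Kcnj8 without SAH array 1, 3 or 4 or sham array 2 (0.88 to 0.97).

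**Figure D5:**
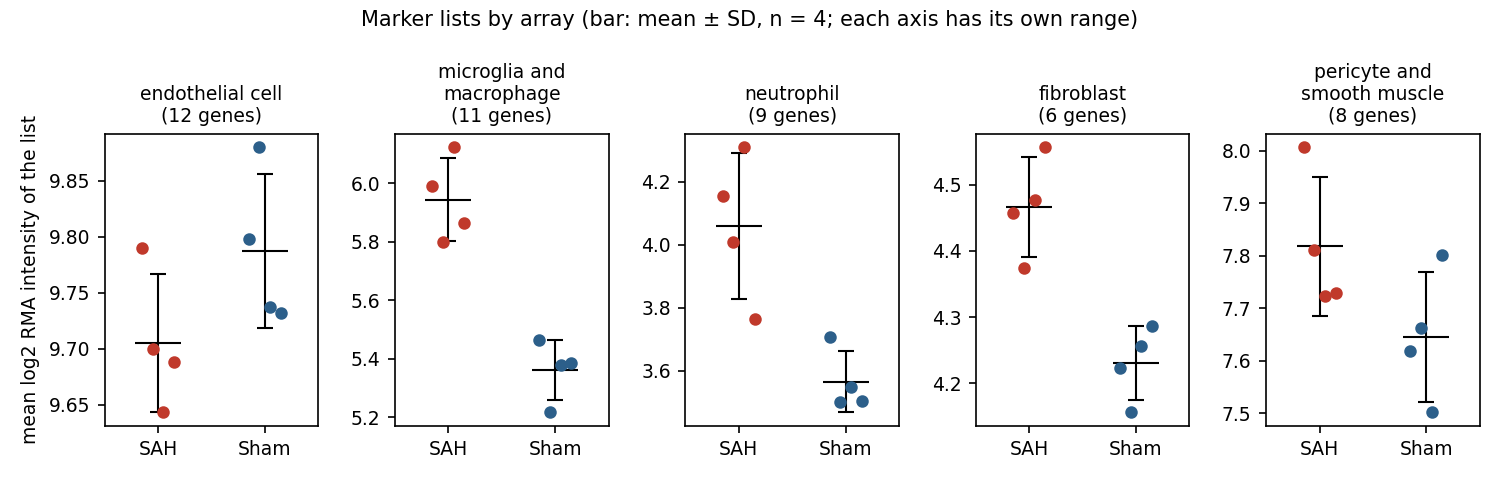
Mean log2 RMA intensity of 5 marker lists on each array, SAH (red) left of sham (blue), with mean ± SD (n = 4 each) and a separate y axis range in each panel that does not start at 0. The microglia and macrophage list (5.80 to 6.12 in SAH, against 5.22 to 5.46 in sham), the neutrophil list (3.77 to 4.31, against 3.50 to 3.71) and the fibroblast list (4.37 to 4.56, against 4.16 to 4.29) separate the groups, while the endothelial and the pericyte and smooth muscle lists overlap. Only S100a8 and S100a9 of the neutrophil list and Dcn of the fibroblast list pass.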

How the data were processed

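Affymetrix Mouse Gene 2.0 ST arrays of amplified RNA from 4 SAH and 4 sham mice were used, 1 array per animal. The values deposited by the authors are RMA intensities on the log2 scale (oligo, R 3.2.2), so background correction and quantile normalization are theirs, and the build of the annotation they used is not given in the sources used here. Groups and replicate numbers come from the sample titles.

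Probe sets were named from the platform annotation, in which 23521 have 1 symbol, 1820 several and 16004 none here, and the first 2 kinds were tested. Each member was kept with all its probe sets, other listed genes with the brightest. The comparison of SAH with sham used limma (3.58.1, under R 4.3.3), after a check on simulated data. P-values were adjusted over all tested probe sets (Benjamini-Hochberg), and 0.05 was the threshold. Precision is limited by the number of arrays.

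Named were all members, of each further complement list the genes that passed and the gene with the highest mean, the 3 genes closest to the member with the largest called change, and marker genes that passed with Pecam1, Cdh5 and Ptprc. Genes outside this rule were named after their values were seen. The members and lists were chosen with earlier results of these data known. Alternatives covered the methods' t-test, trend, robust and weighted fits, median centring, cyclic loess, other sets of probe sets, intensity filters, 16 added to linear intensities, blocks by replicate number, an exact permutation test, and leaving out each array. Leaving out both arrays numbered 6 in the descriptions was chosen after seeing the data. Some items are not reported here.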

Additional observations from a re-analysis of the deposited data

Results flagged for a closer look

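Single arrays that stood apart from the other 3 of their group were looked for by Dixon's test in 34 groups of 4 arrays, of which chance picks about 1 in 20. C4b on sham array 4 was 6.89, with the nearest other sham array at 5.27. Cr1l on SAH array 3 was 9.32, with the nearest other SAH array at 9.15. Cd59b on SAH array 1 was 5.09, with the nearest other SAH array at 4.85, and on sham array 3 it was 5.84, with the nearest other sham array at 4.99. The value of C4b is the one that belongs to a listed gene, and the change of C4b was -0.48 with this array and -0.04 without it. Cr1l and Cd59b enter the comparisons with Cd46 and Cd59a, which were not repeated without the flagged arrays.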

How the results depend on the processing

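No change of a listed gene reversed its direction under any alternative run. The methods' t-test was run here on the deposited values, and 86 of 25341 tested probe sets passed it after adjustment. The paper reports more significant genes than this from its own t-tests, so its calls for the listed genes may differ. Why the numbers differ was not tested. Under the t-test as run here 0 listed genes passed after adjustment, against 3 in limma. Serping1 (1.47, adjusted p = 0.0524) and C5ar1 (1.08, adjusted p = 0.0508) were just above the threshold. Cfb (1.28, adjusted p = 0.269 by that test) also did not pass with array weights (1.23), with all probe sets tested (1.28), with 16 added (1.02), with the replicate block by description number (1.09), without both arrays numbered 6 in the descriptions (1.50) or by the exact permutation test (1.28, p = 0.0571). In the block by description number, SAH array 2 and sham array 3 had no partner of the same number in the other group. Results with this block therefore rest on fewer arrays than the main fit. Cd46 (0.29) reached p = 0.0286 by the exact permutation test, the smallest possible and not adjusted. Above log2 6 only 2 listed genes were tested and 1 passed, so C4b, Cfb, Cd55, Cd46 and C5ar1 have no value there, and the filter at the table median leaves out Cd55.

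Of the 45 further complement genes, 0 passed by the t-test or with the block by description number, 2 passed with the replicate block by title number, and 2 passed without both arrays numbered 6. Above the table median 2 of 15 tested passed (C1qc and Clu), and above log2 6, where C1qc was not tested, 2 of 5 (C1qb and Clu). Probe sets called in all were 86 by the t-test, 353 with all 41345 tested, 275 with the block by description number and 506 without both arrays numbered 6, against 807.

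With 1 array left out, 2 to 3 listed genes, 1 to 3 further complement genes and 471 to 684 probe sets passed. The changes ranged from 1.36 to 1.58 for Serping1, 1.01 to 1.15 for C5ar1, 1.06 to 1.56 for Cfb, 0.28 to 0.43 for Cd55, 0.16 to 0.36 for Cd46, 0.18 to 0.63 for Cd59a and -0.68 to -0.04 for C4b. Same-numbered arrays did not deviate together (r of -0.06 to 0.03). The methods state that a pair of samples, typically 1 SAH and 1 sham, was processed each day, but the labels do not give the days, so a day effect was not tested. The causes of these differences between settings were not tested. With 4 arrays a group, changes of the size of Cd46 or Cd55 may be missed, and those of probe sets below the array median may be understated.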
